A study of Mus musculus with 8 samples.

Results

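The genes described here are 10 components of the pre-B cell receptor (pre-BCR) and of the first steps of its signalling: Vpreb1, Vpreb2, Igll1, Cd79a, Cd79b, Syk, Blnk, Btk, Lyn and Plcg2. They were taken by name from 14582 gene sums tested in pre-B cells, and all 10 passed the filter on low values, a mean of at least 1 TPM (a transcript level corrected for length and for depth). RNA-seq was performed on pre-B cells, sorted by surface markers that included B220 and the lack of IgM, from the bone marrow of C57BL/6 mice, and gave 2 libraries per genotype, every one made from 2 to 3 pooled mice. ATAC-seq, which maps accessible chromatin, was performed on LSK cells, the stem and progenitor fraction of the marrow, with 2 WT and 2 Dido1∆E16 libraries. Dido1∆E16 mice were Dido1flE16/∆E16, carried R26R-EYFP and iCre driven by Vav1, and so had exon 16 of Dido1, which encodes the C terminus of Dido3, deleted in 1 allele throughout and in the other by Cre in hematopoietic cells. Their controls, called WT, were littermates with Dido1flE16/+ that carried the same reporter and the same Cre, so that their floxed allele was exposed to Cre as well and the other allele stayed intact. Mice were between 6 and 10 weeks of age. Per a figure legend of the paper, the ATAC-seq and RNA-seq samples came from males whose ages differed. The comparison asks how these genes differ between genotypes in pre-B cells, and how accessible they are in the progenitors.

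The pre-BCR is made when a newly rearranged immunoglobulin heavy chain pairs with a surrogate light chain, which consists of VpreB (encoded by Vpreb1 and Vpreb2) and λ5 (encoded by Igll1). The receptor signals through the Igα and Igβ chains (Cd79a and Cd79b), which the Src family kinase Lyn phosphorylates and to which the kinase Syk then binds. Syk phosphorylates the adaptor Blnk, which brings Btk and phospholipase Cγ2 (Plcg2) together, and the lipase opens the calcium branch of the pathway. The surrogate light chain genes are known to be active in pro-B and large pre-B cells and to be shut off as cells become small pre-B cells, whereas the other 7 genes stay in use in later B cells.

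Libraries held 1121 to 1635 megabases aligned to annotated transcripts. Coverage of Dido1 exon 16, scaled to the aligned bases of each library, was 9.66 and 9.08 in WT against 0.12 and 0.033 in Dido1∆E16 libraries, so the targeted exon matched the labels. Of 7 pre-B identity markers such as Pax5 and Rag1, none was called, and their summed level was 5156 to 5741 TPM in WT and 4843 to 4969.8 TPM in Dido1∆E16 libraries. Lower in both Dido1∆E16 libraries were 3 of the 7, such as Cd24a (2631 and 2424 against 1942 and 2075 TPM), and 0 were higher. With GENCODE symbols 1945 of all 12340 gene sums tested were lower in both. The median log2 fold change of the 7 was -0.049. The gate also takes in pro-B cells, and the sum over 10 pro-B and large pre-B markers was 326 to 1222 TPM in WT and 1041 to 1128 TPM in Dido1∆E16 libraries. Summed markers of neutrophils and monocytes ran from 270 to 2253 TPM in WT and from 1121 to 9805 TPM in Dido1∆E16 libraries, and those of erythroid cells from 389 to 1087 TPM and from 848 to 10004 TPM, both highest in Dido1∆E16 replicate 2. For T and NK cells the ranges were 589 to 1056 TPM and 677 to 714 TPM, of which Cd2, also on the list of small pre-B cells, made up 582 to 1052 TPM and 665 to 684 TPM, with Cd3e, Cd3g, Cd4, Cd8a and Ncr1 at 0. Thy1 was at 0 in WT against 3.22 and 3.68 TPM in Dido1∆E16 libraries, and Nkg7 at 16.3 TPM in Dido1∆E16 replicate 2 alone. The median log2 fold change was 0.78 for the 5 T and NK genes tested and 0.70 for pro-B and large pre-B markers. It was 2.06 for neutrophils and monocytes, 2.08 for erythroid cells and -0.10 for small pre-B cells. Mature B cell markers held 5049 to 5072 TPM in WT and 5603 to 6411 TPM in Dido1∆E16 libraries. In this sum Cd74 alone stood at 2687 and 2665 TPM in WT against 3724 and 4389 TPM in Dido1∆E16 libraries, whereas 5 of the 10 genes, such as Ighd (546 and 438 against 223 and 155 TPM), lay lower in both Dido1∆E16 libraries, 3 lay higher, and the median log2 fold change was -0.27. Small pre-B cell markers held 2798 to 3179 TPM and 2785 to 2893 TPM. Plasma cell markers held 930 to 1127 TPM and 1214 to 1241 TPM, with Mzb1 at 685 and 847 TPM in WT against 1017 and 989 TPM in Dido1∆E16 libraries, Sdc1 at 121 and 102 against 64.4 and 57.0 TPM, and a median log2 fold change of -0.13. Tnfrsf17 and Epor were at 0 in every library. No gene of any of the 8 marker lists was called. In bulk samples, more cells of a type and more RNA per cell cannot be told apart.

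The surrogate light chain genes lie on chromosome 16, with Igll1 (chr16:16860671-16863985, minus strand, GRCm38/mm10) and Vpreb1 (chr16:16868401-16869255, minus strand) next to each other and Vpreb2 (chr16:17980565-17981080, plus strand) at a distance. Their promoters are shown because these are the 3 members with the widest difference between genotypes. RefSeq windows (GRCm38.p6) of 250 bases before to 50 after a start site were matched for 8 of the 10 members, and not for Cd79b and Lyn. Capitals mark 4 motifs searched on both strands, namely the EBF half-sites CCCNNGGG, the E2A E-box CAGGTG, the Ikaros core TGGGAA and the Ets core GAGGAA, and no 2 matches overlapped in these 3 windows.
Vpreb1, chr16:16869206-16869505, minus strand: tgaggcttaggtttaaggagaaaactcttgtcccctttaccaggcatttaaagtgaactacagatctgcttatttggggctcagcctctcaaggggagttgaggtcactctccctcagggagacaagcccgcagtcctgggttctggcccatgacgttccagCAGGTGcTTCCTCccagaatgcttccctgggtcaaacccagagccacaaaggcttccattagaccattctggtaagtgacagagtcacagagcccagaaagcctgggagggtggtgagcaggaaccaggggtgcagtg
Vpreb2, chr16:17980315-17980614, plus strand: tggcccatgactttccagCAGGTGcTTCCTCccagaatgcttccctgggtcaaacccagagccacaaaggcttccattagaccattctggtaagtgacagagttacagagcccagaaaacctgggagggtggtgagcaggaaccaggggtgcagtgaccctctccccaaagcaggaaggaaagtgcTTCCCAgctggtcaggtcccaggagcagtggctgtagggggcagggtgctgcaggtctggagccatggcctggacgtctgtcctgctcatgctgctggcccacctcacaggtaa
Igll1, chr16:16863936-16864235, minus strand: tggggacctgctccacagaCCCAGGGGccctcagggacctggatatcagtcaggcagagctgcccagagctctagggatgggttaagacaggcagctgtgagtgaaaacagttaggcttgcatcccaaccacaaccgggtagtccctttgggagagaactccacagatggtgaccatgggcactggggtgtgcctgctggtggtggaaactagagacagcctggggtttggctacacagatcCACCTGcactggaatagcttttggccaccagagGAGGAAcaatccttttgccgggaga
The E-box CAGGTG stood in all 3 windows and in 8 of the 9 windows of the members, against 20.2% of 32851 RefSeq promoters of the same length. The 9 windows came from 8 members, since Syk had a window at each annotated start. The Vpreb1 and Vpreb2 windows share a near-identical stretch that holds the E-box, so the windows are not independent. The EBF half-sites stood in the Igll1 window alone, against 13.7% of promoters. The Ets core was found in 6 of the 9 windows (28.3% of promoters) and the Ikaros core in 3 (25.6%). In the Vpreb1 and Vpreb2 windows the E-box and the Ets core were separated by a single base. A match is a description of the letters and not a measured site. Of the members without a large difference, Cd79a, Syk, Blnk and Plcg2 held the E-box as well, Btk did not, and Cd79b and Lyn had no window.

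Vpreb1 and Vpreb2 are near-identical copies. Over the 429 bases of the Vpreb2 transcript their exonic sequences differed at 9 positions (97.9% identity), with an identical run of 196 bases. The stretch of 150 bases with most differences is shown, with the 6 differing bases in capitals.
Vpreb1, transcript bases 382 to 531: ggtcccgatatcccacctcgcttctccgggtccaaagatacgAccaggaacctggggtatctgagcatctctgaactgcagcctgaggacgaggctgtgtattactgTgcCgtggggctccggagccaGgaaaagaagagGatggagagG
Vpreb2, transcript bases 238 to 387: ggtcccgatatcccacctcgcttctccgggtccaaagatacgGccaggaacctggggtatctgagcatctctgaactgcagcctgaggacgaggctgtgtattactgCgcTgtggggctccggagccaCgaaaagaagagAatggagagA
Of all windows of 50 bases in the annotated Vpreb2 transcripts, 32.8% also stood in Vpreb1 and in no other gene, and 18.8% of the Vpreb1 windows stood in Vpreb2. The split of reads between both genes is therefore uncertain, and their sum is given beside them. Igll1, Cd79b, Syk, Btk and Plcg2 shared no such window with another gene, whereas Lyn shared 13.4% of its windows with Gm11787 and Cd79a 8.31% with Gm32220.

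The surrogate light chain genes had both Dido1∆E16 values above both WT values, about 13-fold for Vpreb1, 15-fold for Vpreb2 and 4.62-fold for Igll1 by the ratio of the mean TPM. None of them passed the adjusted threshold, and the WT libraries differed from each other by up to 3.26-fold. Vpreb1 was measured at 108 and 40.9 TPM in WT against 1222 and 738 TPM in Dido1∆E16 libraries. The lowest Dido1∆E16 library stood 6.82-fold above the highest WT library. The log2 fold change of Vpreb1 was 3.81 ± 0.58 (SE, n = 2 per genotype), with a 95% interval from 2.14 to 5.48 and a limma adjusted p of 0.286.

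Vpreb2 was measured at 27.1 and 8.76 TPM in WT against 382 and 168 TPM in Dido1∆E16 libraries. The groups did not overlap, and the values rested on 7.22 and 1.75 kilobases of aligned sequence in WT and on 107 and 33.3 kilobases in Dido1∆E16 libraries. Its log2 fold change was 3.94 ± 0.72 (SE, n = 2 per genotype, limma adjusted p = 0.309). Added together, Vpreb1 and Vpreb2 held 135 and 49.6 TPM in WT against 1604 and 906 TPM in Dido1∆E16 libraries, a log2 difference of 3.86. TPM is divided by transcript length, 768 bases for Vpreb1 and 429 for Vpreb2. This sum therefore still depends in part on how reads were divided between the copies. Without Dido1∆E16 replicate 2, the library with the highest neutrophil and erythroid marker sums, the log2 fold changes were 4.18 for Vpreb1, 4.53 for Vpreb2 and 2.75 for Igll1.

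Igll1 was measured at 112 and 34.4 TPM in WT against 424 and 252 TPM in Dido1∆E16 libraries. The groups did not overlap, and the log2 fold change was 2.37 ± 0.68 (SE, n = 2 per genotype), with a 95% interval from 0.41 to 4.33 and a limma adjusted p of 0.443. The TPM of Igll1 was assigned to different transcript models in both genotypes. In the WT libraries all of it lay on a model of 3 exons and 870 bases, and in the Dido1∆E16 libraries all of it lay on a model of 2 exons and 2161 bases. Since TPM is divided by length, the genotype difference in TPM was smaller than that in aligned bases, for which the log2 fold change was 3.61 ± 0.68 (SE, limma adjusted p = 0.251). Coverage of the first exon, 290 bases common to both models, scaled in the same way as for Dido1, was 26.3 and 7.74 in WT against 294 and 167 in Dido1∆E16 libraries, a ratio of the means of 13.6. On the same scale the exons of Vpreb1 gave ratios of 15.6 and 12.6.

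The pro-B and large pre-B markers were examined beside these genes, since they mark the stages in which the surrogate light chain is known to be active. Kit, Dntt, Erg, Bst1 and Spn were higher in both Dido1∆E16 libraries, 5 of the 9 listed genes tested, and none was called. The same held for 3299 of all 12340 gene sums tested with GENCODE symbols, which the marker lists use. Dntt, the terminal transferase of pro-B cells, was at 48.7 and 7.18 TPM in WT against 191 and 96.0 TPM in Dido1∆E16 libraries. The markers of dividing cells on the list did not follow the genotype. Top2a was highest in WT replicate 1 (503 TPM), lowest in WT replicate 2 (45.7 TPM) and lay between them in Dido1∆E16 libraries (189 and 255 TPM). In WT the library with the lower Vpreb1, Vpreb2, Igll1 and Dntt was thus also the one with the lower Top2a. The part of cell stage in the genotype difference was not tested.

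**Figure D1:**
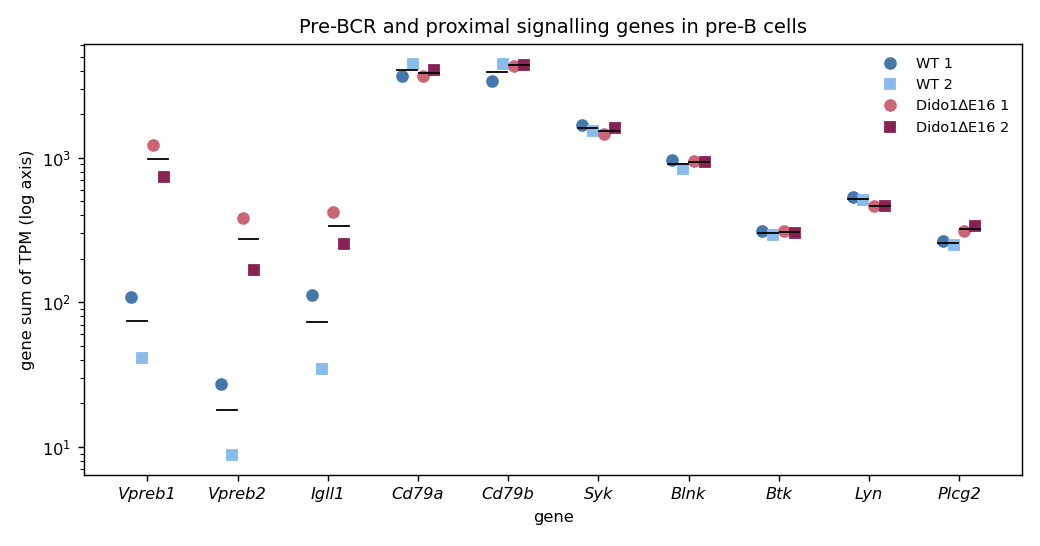
Gene sums of TPM (log axis) of the 10 genes in each pre-B library, with circles for replicate 1, squares for replicate 2 and horizontal lines for the mean of each genotype. Vpreb1, Vpreb2 and Igll1 lie apart by genotype, from 8.76 to 112 TPM in WT and from 168 to 1222 TPM in Dido1∆E16 libraries, whereas the points of Cd79a, Cd79b, Syk, Blnk and Btk overlap.

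The signalling chains were the most abundant of the 10 genes and did not separate by genotype. Cd79a (chr7:24897511-24902197, plus strand) was measured at 3648 and 4476 TPM in WT against 3685 and 4070 TPM in Dido1∆E16 libraries. Both Dido1∆E16 values fell between the WT values. Its log2 fold change was -0.061 ± 0.18 (SE, n = 2 per genotype), with a 95% interval from -0.57 to 0.44 (limma adjusted over all genes, not called). Cd79b (chr11:106311341-106314562, minus strand) was measured at 3393 and 4458 TPM in WT against 4324 and 4379 TPM in Dido1∆E16 libraries, again within the WT range. Its log2 fold change was 0.16 ± 0.19, with an interval from -0.40 to 0.72. These intervals leave room for differences in either direction and do not show equal levels.

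Of the kinases, Syk (chr13:52583437-52648792, plus strand) was measured at 1675 and 1525 TPM in WT against 1457 and 1608 TPM in Dido1∆E16 libraries. The groups overlapped, and the log2 fold change was -0.062 ± 0.13 (SE, n = 2 per genotype), with an interval from -0.43 to 0.31. Btk (chrX:134542341-134583140, minus strand), the Tec family kinase that activates phospholipase Cγ2, differed least between genotypes, at 313 and 292 TPM in WT against 311 and 302 TPM in Dido1∆E16 libraries. Its log2 fold change was 0.020 ± 0.10 (SE), with an interval from -0.27 to 0.31. Lyn (chr4:3678121-3791612, plus strand), which both starts and restrains receptor signalling, was measured at 535 and 508 TPM in WT against 465 and 462 TPM in Dido1∆E16 libraries. Both Dido1∆E16 values lay below both WT values, by 0.17 on the log2 scale (log2 fold change -0.17 ± 0.099, SE), and limma gave an unadjusted p of 0.169. The exons of Lyn did not all follow this direction. Coverage of the last exon, of 1871 bases, was 227 and 234 in WT against 181 and 173 in Dido1∆E16 libraries. Exon 5 went the other way, at 250 and 240 against 264 and 299. Coverage was scaled as for Dido1.

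Blnk (chr19:40928927-40994535, minus strand), the adaptor, was measured at 971 and 838 TPM in WT against 945 and 935 TPM in Dido1∆E16 libraries, so the groups overlapped, and its interval ran from -0.31 to 0.42. Plcg2 (chr8:117498275-117635142, plus strand), the lipase that Blnk and Btk bring to the receptor, was measured at 268 and 250 TPM in WT against 311 and 336 TPM in Dido1∆E16 libraries. The groups did not overlap, the ratio of the means was 1.25, and the log2 fold change was 0.32 ± 0.11 (SE, n = 2 per genotype). The limma adjusted p of Plcg2 was 0.497, and it was not called. The difference was not even along the gene. Coverage of exon 2, scaled as for Dido1, was 41.8 and 40.5 in WT against 67.5 and 75.0 in Dido1∆E16 libraries. In the last exon the direction turned, at 155 and 177 in WT against 140 and 137 in Dido1∆E16 libraries.

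Over all 10 genes, 4 (Vpreb1, Vpreb2, Igll1 and Plcg2) had both Dido1∆E16 libraries above both WT libraries, as did 24.5% of all gene sums tested, and 1 (Lyn) had both below, as did 15.7%. An unadjusted limma p under 0.05 was found for the same 4 genes, against 9.78% of all gene sums tested. With GENCODE symbols it was found for 3 of the 10, against 1411 of all 12340 gene sums. That of Plcg2 was 0.046 in TPM and 0.056 in aligned bases (limma, unadjusted). The median log2 fold change was 0.11 over the 10 genes and 0.060 over all gene sums. No member was called, which took a limma adjusted p under 0.05 together with a log2 fold change of 0.6 or more in either direction. By that rule 0.0274% of the gene sums (4 of 14582) were higher in Dido1∆E16 and 0.0411% (6) were lower.

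**Figure D2:**
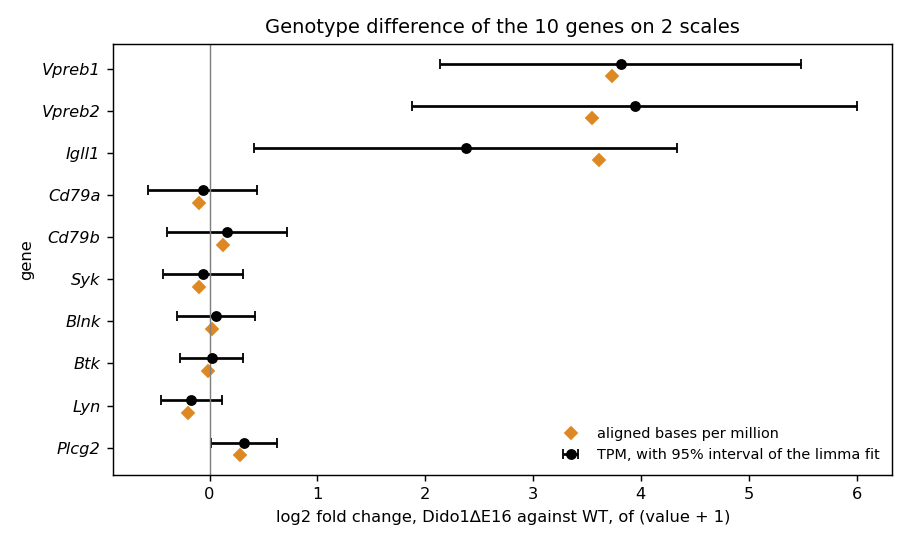
Log2 fold change of each gene, Dido1∆E16 against WT, from TPM (black circles, with the 95% interval of the limma fit) and from aligned bases scaled to the library total (orange diamonds). The intervals of Vpreb1, Vpreb2, Igll1 and Plcg2 lie above 0 before adjustment, and Igll1 is the gene whose value moves most between scales, from 2.37 to 3.61.

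Ratios between members within a library do not depend on how the library was scaled, and 8 were fixed for partners of a complex or a signalling step. With 2 against 2 libraries an exact two-sided permutation test cannot go below p = 0.33, and the adjusted p over the 8 ratios was 0.444 or 0.667. The log2 ratio of Vpreb1 to Cd79a was -5.07 and -6.78 in WT against -1.59 and -2.46 in Dido1∆E16 libraries, a difference of 3.90 (exact permutation p = 0.33). That of Igll1 to Cd79a was -5.02 and -7.03 in WT against -3.12 and -4.01 in Dido1∆E16 libraries, a difference of 2.46 in TPM. In aligned bases per exonic kilobase it was -6.34 and -8.34 in WT against -3.12 and -4.02 in Dido1∆E16 libraries, a difference of 3.77.

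Within the surrogate light chain, the log2 ratio of Vpreb2 to Vpreb1 lay between -2.22 and -1.68 in all libraries, with overlapping groups. The ratio of Igll1 to Vpreb1 depended on the scale. In TPM it was 0.050 and -0.25 in WT against -1.53 and -1.55 in Dido1∆E16 libraries, a difference of -1.44. In aligned bases per exonic kilobase it was -1.26 and -1.57 in WT against -1.53 and -1.55 in Dido1∆E16 libraries, a difference of -0.13 with overlapping groups. Among the signalling genes, Btk to Plcg2 (0.23 and 0.22 in WT, -0.0016 and -0.15 in Dido1∆E16) and Cd79a to Cd79b (0.10 and 0.0059 in WT, -0.23 and -0.11 in Dido1∆E16) were lower in both Dido1∆E16 libraries. Blnk to Syk was higher in both by a mean of 0.12, and Syk to Lyn overlapped.

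**Figure D3:**
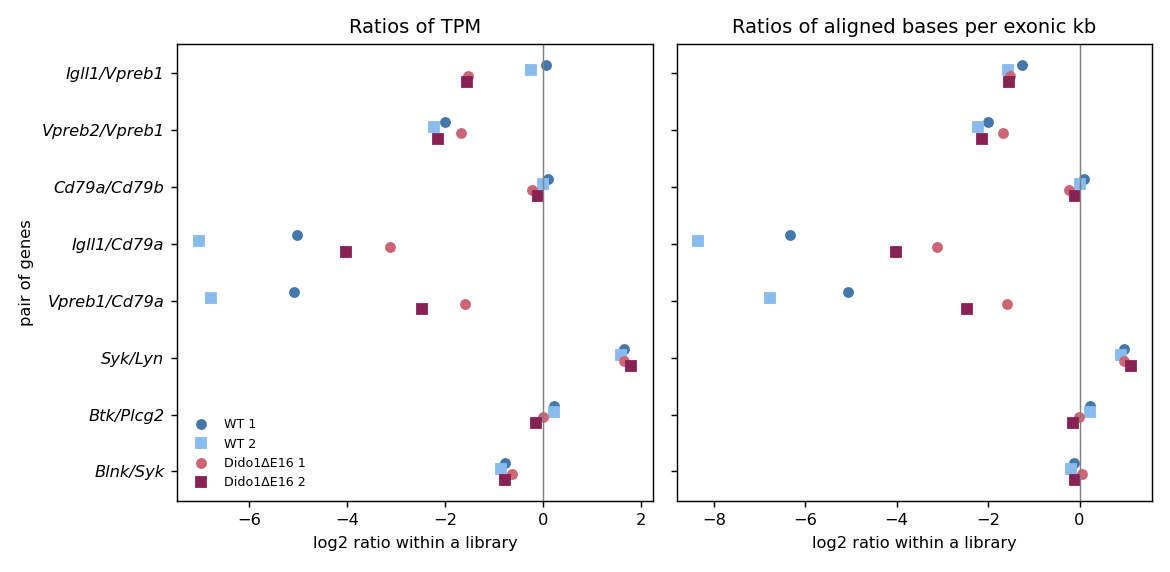
Log2 ratios of 8 pairs of genes within each pre-B library, in TPM (left) and in aligned bases per exonic kilobase (right), with blue for WT and red for Dido1∆E16 libraries. Igll1/Vpreb1 separates the genotypes in TPM, by -1.44, and not in aligned bases, where the difference is -0.13.

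A list of 57 other genes of pre-BCR and BCR signalling, in 5 role groups, was examined in the same fit. Of these, 46 were tested and none was called in either direction, while 8 had an unadjusted limma p under 0.05, against 9.78% of all gene sums. Both Dido1∆E16 libraries lay above both WT libraries for 16 of the 46 and below for 11, against 24.5% and 15.7% of all gene sums, and the median log2 fold change was 0.11. With GENCODE symbols 51 of the 57 were tested, none was called and 8 had an unadjusted p under 0.05. The largest difference among the named genes of this list was that of Lcp2, the SLP-76 adaptor that in T cells takes the place of Blnk, at 8.72 and 10.4 TPM in WT against 36.0 and 36.3 TPM in Dido1∆E16 libraries. Its log2 fold change was 1.82 ± 0.20 (SE, limma adjusted p = 0.194).

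Among the other adaptors, Lat2 was at 23.5 and 29.3 TPM in WT against 14.6 and 14.1 TPM in Dido1∆E16 libraries (limma adjusted p = 0.412). Blk and Fyn are Src family kinases that act beside Lyn. Blk was at 489 and 522 TPM in WT against 352 and 378 TPM in Dido1∆E16 libraries, and Fyn was at 31.8 and 30.0 TPM in WT against 47.0 and 45.5 TPM in Dido1∆E16 libraries. Their limma adjusted p-values were 0.381 and 0.403.

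Of the effectors, 9 of 20 tested lay higher in both Dido1∆E16 libraries and 2 lay lower, against the same 24.5% and 15.7% of all gene sums. Rasgrp3, an activator of Ras downstream of diacylglycerol, was at 19.5 and 15.7 TPM in WT against 27.8 and 31.9 TPM in Dido1∆E16 libraries. Itpr1, a calcium channel that opens on the product of Plcg2, was at 16.1 and 13.0 TPM in WT against 24.7 and 24.2 TPM in Dido1∆E16 libraries. Of the inhibitors, the Fc receptor Fcgr2b was at 109 and 145 TPM in WT against 79.4 and 77.6 TPM in Dido1∆E16 libraries, and the phosphatase Inpp5d at 303 and 254 TPM in WT against 344 and 351 TPM in Dido1∆E16 libraries. Among the co-receptors and partners, Vpreb3 was at 4522 and 5394 TPM in WT against 5825 and 5716 TPM in Dido1∆E16 libraries, and Cr2 was below 4 TPM in every library. Vpreb3 is a separate protein of the assembly pathway, and its log2 fold change of 0.22 was far below those of Vpreb1 and Vpreb2.

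The genes whose pattern over the 4 pre-B libraries lay nearest to that of 3 members were sought among 9464 gene sums with a mean of at least 10 TPM, by the Euclidean distance of the deviations of log2(TPM + 1) from the gene mean. For Igll1 these were Gfra2 (14.6 and 6.14 TPM in WT, 80.4 and 48.9 TPM in Dido1∆E16, distance 0.44), Scn4b (distance 0.46) and Ubash3a (distance 0.46). These neighbours rest on the TPM of Igll1, whose transcript model differed between the genotypes, and aligned bases were not used for them. For Cd79a the nearest were Sub1 and Tbc1d22a, at distances of 0.035 and 0.036. For Syk they were Tmem126b, an unnamed transcript and Ddost, at 0.010 to 0.029. These are descriptions over 4 libraries.

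In LSK cells the surrogate light chain genes had few called regions. No MACS2 peak was assigned to Vpreb1, Vpreb2 or Cd79a in any of the 4 LSK libraries. Igll1 had a single peak in each WT library, between its start and the end of Vpreb1, at -1097 and -1007 bases from the annotated start of Igll1, with scores of 25 and 71. Neither Dido1∆E16 library had a MACS2 peak there. HOMER called the same region in both WT libraries and in Dido1∆E16 replicate 2, so its absence there depends on the peak caller.

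A second region lay upstream of Vpreb1, where the deposited annotation assigns it to the promoter of Top3b. It was called in WT replicates 1 and 2 (scores 71 and 151) and in Dido1∆E16 replicate 2 (score 29). Its narrowest call is shown because this is the called region nearest to the 5′ end of Vpreb1, 1377 bases from the RefSeq start, and capitals mark the single match to the 4 motifs above, an Ets core.
Upstream region, chr16:16870632-16870928, minus strand: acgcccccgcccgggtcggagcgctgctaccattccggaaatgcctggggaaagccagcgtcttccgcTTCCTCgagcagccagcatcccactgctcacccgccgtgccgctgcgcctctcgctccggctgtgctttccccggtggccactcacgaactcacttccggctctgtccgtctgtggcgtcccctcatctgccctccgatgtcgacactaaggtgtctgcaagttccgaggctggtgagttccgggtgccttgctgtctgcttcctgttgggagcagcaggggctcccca
The deposited list of regions tested with HOMER gave log2 normalised tag counts of 6.98 and 6.58 in WT against 6.00 and 5.67 in Dido1∆E16 libraries for chr16:16870622-16871160. The authors had chosen the regions of that list for a genotype difference, so these values are a description. On the same terms, the Lyn promoter (chr4:3677885-3679068) had 7.56 and 7.42 against 6.91 and 6.61, and an intronic region of Plcg2 (chr8:117548033-117548871) had 7.06 and 6.83 against 6.10 and 6.09.

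The kinase, adaptor and lipase genes carried most of the peaks. They also span far more bases than the other members, and the counts were not scaled to gene length. The WT libraries held 6 and 13 MACS2 peaks at Lyn, and the Dido1∆E16 libraries 2 and 1. Plcg2 had 4 and 12 in WT against 2 and 2 in Dido1∆E16 libraries, and Syk had 3 and 6 against 1 and 0. Blnk had none in Dido1∆E16 libraries, whereas the WT libraries held 2 and 3. HOMER, by contrast, called Blnk peaks in every library, 1 and 4 for WT and 1 and 2 for Dido1∆E16, so this absence depends on the peak caller. Btk (3 peaks) and Cd79b (1 peak) had peaks in WT replicate 2 alone. Over the 10 genes the totals were 16 and 39 in WT against 5 and 3 in Dido1∆E16 libraries (exact permutation p = 0.33, the smallest that 2 against 2 allows).

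Both Dido1∆E16 libraries held fewer peaks than both WT libraries for 5 of the 7 members with any peak (Igll1, Syk, Blnk, Lyn and Plcg2), and the same held for 35.6% of 17769 genes with a peak. Total MACS2 peaks per library were 27352 and 57739 in WT and 13208 and 16329 in Dido1∆E16, with 10249256, 52050898, 22533077 and 44633938 sequence tags in the same order. When the 13208 best-scoring peaks of each library were used, the totals over the 10 genes were 7 and 5 in WT against 5 and 2 in Dido1∆E16 libraries, and the groups overlapped. Lyn alone then had fewer peaks in both Dido1∆E16 libraries, 1 of 3 members with a peak, against 7.16% of genes.

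**Figure D4:**
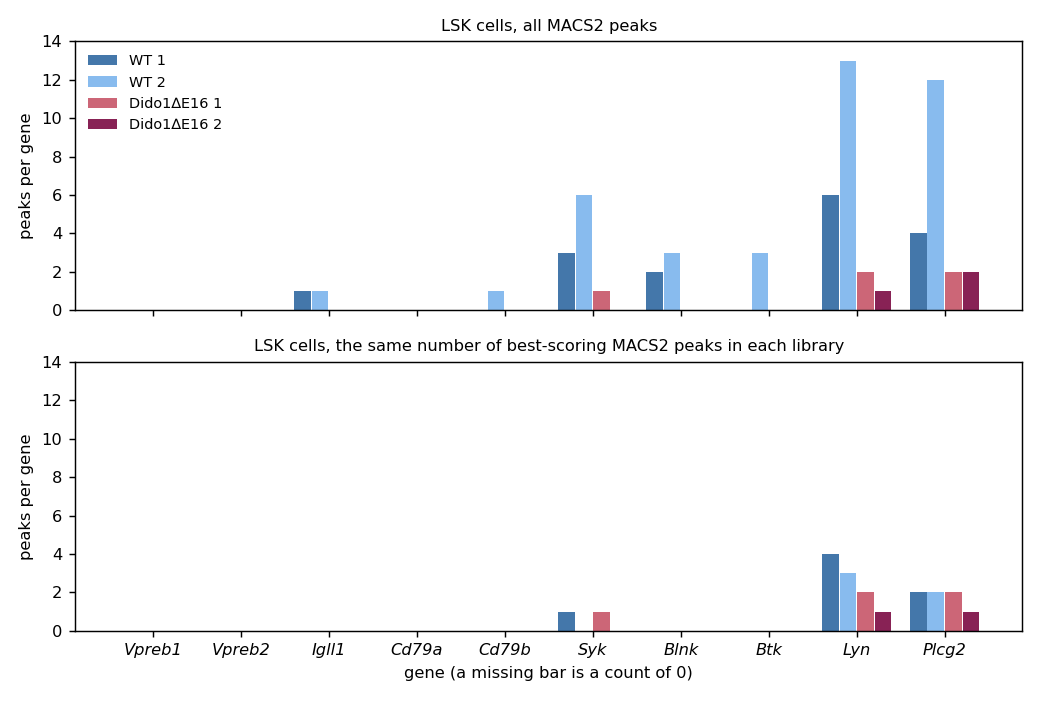
MACS2 peaks assigned to each gene in the 4 LSK libraries, for all peaks (top) and for the 13208 best-scoring peaks of each library (bottom), with blue bars for WT and red bars for Dido1∆E16. The bars of Lyn stand at 6 and 13 for WT and at 2 and 1 for Dido1∆E16 at the top, and at 4, 3, 2 and 1 at the bottom.

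Promoters and regions inside genes were counted apart. The members with a promoter peak numbered 3 and 6 in WT against 2 and 2 in Dido1∆E16 libraries (exact permutation p = 0.33). With HOMER they numbered 3 and 5 against 4 and 2, and the groups overlapped (exact permutation p = 0.667). The Lyn promoter was called in all 4 libraries. The peaks of both WT libraries had 16 stretches in common that were assigned to members, and in 13 of these no Dido1∆E16 peak overlapped the common stretch. By class these were 2 of 4 promoter regions, both of Syk, and 11 of 12 others. At the first Syk promoter, Dido1∆E16 replicate 1 had a peak (chr13:52582475-52582772, score 19) that overlapped the peak of WT replicate 2 (chr13:52582585-52583685) and missed the narrower peak of WT replicate 1. HOMER called 2 Syk promoter peaks in Dido1∆E16 replicate 1 and none in replicate 2. Retained regions were the Lyn promoter, the Plcg2 promoter and a Plcg2 intron region (chr8:117526240-117526534). The 5 intronic and 5′ UTR regions of Lyn that both WT libraries shared had no Dido1∆E16 peak, and their WT scores ran from 12 to 91. Neither promoter peaks nor shared stretches were counted over all genes. The Dido1∆E16 libraries held fewer MACS2 peaks in total, 13208 and 16329 against 27352 and 57739 in WT. These counts can therefore not be read as a trait of the members, and the difference between both classes was not tested.

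**Figure D5:**
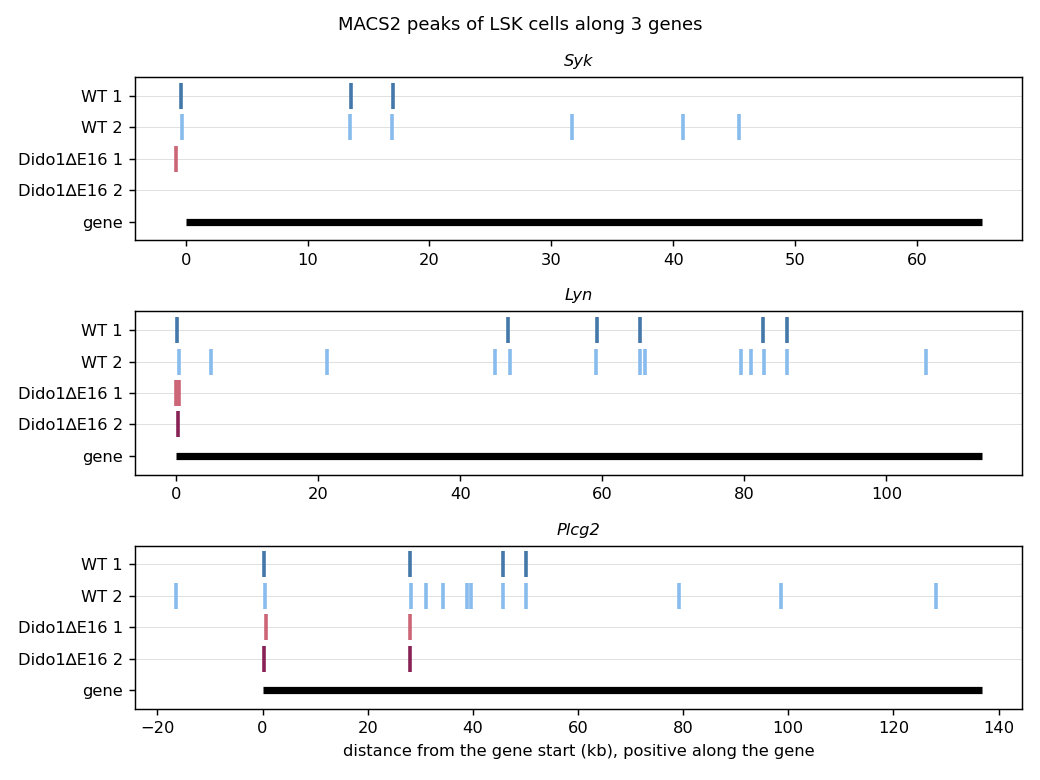
Position of each MACS2 peak centre along Syk, Lyn and Plcg2 in the 4 LSK libraries, as the distance in kb from the gene start, with the gene as a black bar. In Dido1∆E16 libraries the peaks of Lyn lie at the gene start, and those of Plcg2 at the start and in 1 intron region that both WT libraries also hold.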

How the data were processed

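Per the labels and the methods of the paper, reads were aligned to mm10 with BWA 0.7.15 (submitters' processing notes), and the authors ran StringTie on UCSC known genes. The deposited RNA-seq files give, for each transcript, TPM, FPKM and a mean coverage, and no counts. The deposited MACS2 files hold a score and a width per peak, called per library and annotated with ChIPseeker (promoter, 1 kb before to 200 bp after a start site), and HOMER files hold widths. The deposited differential region lists give log2 normalised tag counts per library for regions past the authors' threshold. The authors' fold changes and p-values, also in their edgeR tables, were not used.

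TPM was summed per gene by the authors' symbols (30124 of 63753 transcripts common to all libraries), and levels of marker lists by overlap with GENCODE M21. Log2(TPM + 1) was fitted by genotype with limma 3.58.1 (R 4.3.3, eBayes with a trend) for gene sums with a mean of at least 1 TPM, with Benjamini-Hochberg adjustment over 14582 gene sums. The authors' own test on counts could not be used on TPM, and limma took its place. Fold changes on the log2(value + 1) scale understate the change of low genes. Peaks were compared by the assigned gene, with an overlap of 1 bp (bedtools 2.31.1 for transcripts, Python 3.11.15 for peaks). The fit was tested on simulated data with the means and spread of the real gene sums. It called 26% of simulated log2 changes of 2, 58% of 4, 76% of 6 and 40% of -4. Of 14382 unchanged gene sums it called 0. A gene that was not called may therefore still differ. Labels do not say whether replicates with the same number share a batch, or whether LSK replicates came from separate mice, so p-values measure the spread between these libraries. Named genes were the 10 members, in each role group of the pathway list every called gene and the 2 with the smallest p, and the 3 genes nearest in pattern to Igll1, Cd79a and Syk. Some genes of these lists are not reported here, and the list sums leave them out. Members, lists and motifs were chosen with earlier results of these data known.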

Additional observations from a re-analysis of the deposited data

How the results depend on the processing

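No member and no gene of the pathway list was called under any of the 12 alternative fits, and the lowest adjusted p of a member by limma was 0.189 (Vpreb1, GENCODE symbols). Vpreb1 kept a log2 fold change of 3.12 to 4.50, Vpreb2 of 3.18 to 4.70 and Igll1 of 1.54 to 3.61 over these fits. Gene sums called higher and lower (4 and 6) became 0 and 0 with a pseudocount of 0.1, without a filter on low values, with aligned bases scaled to the library total and with the replicate number as a block, at 1423, 1779, 1492 and 952 gene sums with an unadjusted p under 0.05. They became 14 and 11 without a trend, and 3 were called lower with GENCODE symbols. Leaving out a library gave 0 to 445 higher and 0 to 5 lower, with 445 without Dido1∆E16 replicate 2, where the remaining library was taken to vary like the WT libraries. The deviations of same-numbered libraries correlated at r = 0.058 over genes, so the replicate block rests on a number alone. Directions near 0 turned. Blnk was at -0.032 and Btk at -0.071 after median-centring, and Btk at -0.0056 with FPKM and -0.013 with aligned bases. Without 1 library each, the ranges were -0.21 to 0.086 for Cd79a, -0.035 to 0.36 for Cd79b, -0.13 to 0.0091 for Syk, -0.047 to 0.17 for Blnk, -0.030 to 0.070 for Btk and -0.026 to 0.43 for Vpreb2/Vpreb1. With HOMER peaks the WT libraries held 10 and 43 member peaks and the Dido1∆E16 libraries 9 and 18. Leaving out an LSK library moved the difference in member peaks from -35 to -12. The difference in members with a promoter peak, -2.5, ran from -4 to -1 without a library, and was -1 with HOMER and 0 with the best-scoring peaks. The causes of these changes were not tested. With 2 libraries per genotype, depth limited Vpreb2 most, which rested on 1.75 kilobases in WT replicate 2.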

Other observations

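Syk has a second annotated start inside the gene, and its share of the Syk TPM was 13.3% and 10.5% in WT and 21.2% and 14.9% in Dido1∆E16 pre-B cells. The groups did not overlap, and the ranges of this share lay close to each other. The share depends on how TPM was divided among the Syk transcript models. Coverage of the exon at the second start, scaled as for Dido1, was 21.9 and 15.8 in WT against 48.6 and 60.4 in Dido1∆E16 libraries. Coverage of Syk exon 1 was 179 and 165 against 185 and 241. In LSK cells both annotated Syk starts had a MACS2 peak in each WT library, the second with scores of 11 and 44, and the second had none in either Dido1∆E16 library. Cd79a lies next to Arhgef1, whose promoter was called in all 4 LSK libraries with scores of 42, 212, 85 and 41 in the order WT 1, WT 2, Dido1∆E16 1 and Dido1∆E16 2, although no peak was assigned to Cd79a itself.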
